A study of Mus musculus with 8 samples.

Results

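The RNA of 10 genes of inflammasome signaling and pyroptosis was followed in mouse liver tumors taken 3 h after a single dose of a nanoparticle that carried imiquimod. The genes were Casp1, Casp4, Casp12, Gsdmd, Pycard, Nlrp3, Nlrc4, Mefv, Il18 and Il18bp. They were taken by symbol as members of the pathway and make up 10 of the 55536 counted genes. This choice was made with earlier results of these data known. In the RNA-seq experiment, HCA-1 cells, a mouse hepatocellular carcinoma (HCC) line, were implanted under the liver capsule of male C3H mice of 6 to 8 weeks, the age given in the labels. On day 17 the mice in the treated group (IMQNP, n = 4) received a single dose of 4 mg/kg PFSUV-IMQ by the intravenous route. PFSUV are phospholipid-free small unilamellar vesicles, and imiquimod (IMQ) is an agonist of Toll-like receptor 7 (TLR7). The control group (n = 4) is labeled Control only, and the study's methods name saline, whereas a figure legend calls the controls untreated. Control replicates were numbered 1, 3, 4 and 5 and treated replicates 1 to 4, each replicate being a library of bulk tumor tissue, with cancer cells, host liver cells and infiltrating leukocytes mixed. Fewer cells of a type and less RNA per cell therefore cannot be told apart.

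Inflammasomes are protein complexes that assemble in the cytosol when a sensor such as NLRP3, NLRC4 or pyrin meets a microbial or danger signal. The adaptor ASC then joins most sensors to caspase-1, which matures IL-1β and IL-18 and cleaves gasdermin D, whose freed end forms pores in the plasma membrane and causes the lytic death called pyroptosis. Mouse caspase-11, the product of Casp4, binds bacterial lipopolysaccharide in the cytosol and cleaves gasdermin D without a canonical sensor. Transcripts of several of these genes are known to be induced by interferon, and the RNA level does not show whether a caspase or gasdermin was cleaved.

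Library totals ran from 16883911 to 27687756 counts, at which 3 counts correspond to a CPM value, the count scaled to a common library size, of 0.108 to 0.178, and mitochondrial genes took 1.37% to 6.65% of counts. Intervals were not attached to single libraries, and the spread between the 4 tumors of a group is the error given throughout. Of the HCC markers, Krt8 and Krt18 were high in both groups (means of 686 and 886 CPM in the control group). Afp and Gpc3, which mark many liver cancers, were far lower at 5.46 and 1.23 CPM, though above the level of 3 counts. Treated replicate 2 stood apart: it had the highest hepatocyte, neutrophil, T cell and B cell marker sums of all 8 tumors and the lowest HCC marker sum, with the highest mitochondrial share (6.65%) and the lowest TMM normalization factor (0.843). Results that it moved most are given with and without it.

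Casp4 was the 1 member called higher after PFSUV-IMQ, which does not show that the others were unchanged. A gene was called when its p from the quasi-likelihood test of edgeR, after Benjamini-Hochberg adjustment across the 15998 tested genes, was under 0.05 and its log2 fold change was beyond 1. All 10 members passed the filter on low counts, 1 was called higher and 0 were called lower, against backgrounds of 2.26% of tested genes called higher and 0.200% called lower. Of the members, 9 had a positive log2 fold change, with a median of 0.90 beside -0.03 over all tested genes. In 5 members, Casp1, Casp4, Gsdmd, Mefv and Il18bp, every treated tumor lay above every control tumor, an arrangement that 6.00% of tested genes had, and 0 members had the opposite arrangement, which 3.28% of tested genes had. At an unadjusted p under 0.05, 8 members were higher, compared with 8.34% of tested genes, but for 7 of these 8 the adjusted p did not pass. Since the members were chosen with earlier results of these data known, these shares beside all tested genes are descriptions and not a test of the pathway.

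**Figure D1:**
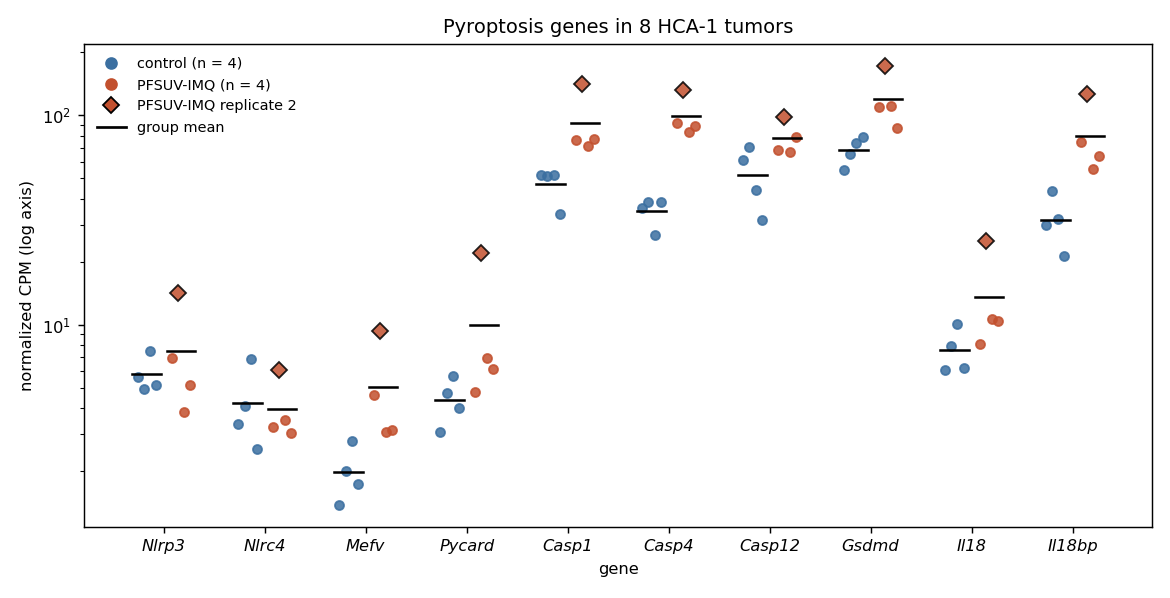
Normalized CPM (log axis) of the 10 genes in each tumor, with control tumors in blue, PFSUV-IMQ tumors in red, treated replicate 2 as a diamond and the group mean as a bar (n = 4 per group). The treated points lie clear of the control points for Casp1, Casp4, Gsdmd, Mefv and Il18bp, and the diamond is the highest treated point for 10 of 10 genes.

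**Figure D2:**
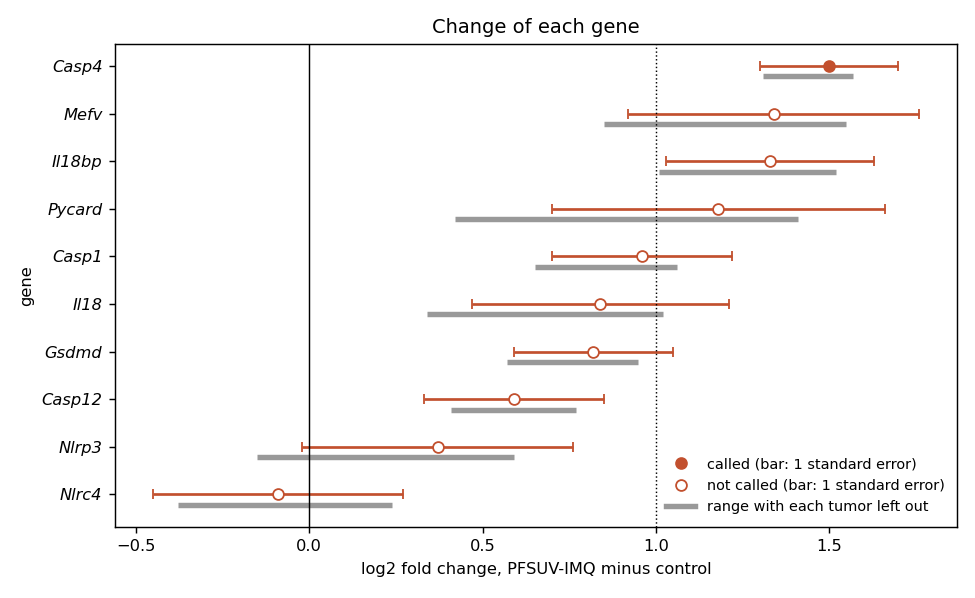
Log2 fold change of each gene, PFSUV-IMQ minus control, with 1 standard error, where a filled point marks a called gene and the gray bar gives the range when each tumor was left out in turn. Casp4, at 1.50, is the filled point, and the gray bars of Nlrp3 and Nlrc4 cross 0.

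Among the caspases, Casp4 (ENSMUSG00000033538, chr9:5308828-5336783, + strand, GRCm38) encodes caspase-11, the sensor and protease of the noncanonical inflammasome. Its level was 36.1, 38.4, 26.8 and 38.4 CPM in control replicates 1, 3, 4 and 5, and 91.6, 132, 82.8 and 88.4 CPM in treated replicates 1 to 4. The lowest treated tumor was therefore well above the highest control tumor, and 3 of the 4 treated tumors lay close together. The means were 34.9 ± 5.50 and 98.6 ± 22.3 CPM (SD, n = 4), a 2.82-fold ratio, with a fitted log2 fold change of 1.50 (SE 0.20, adjusted p = 0.00413). By p, Casp4 ranked 104 of the 15998 tested genes. Leaving out each tumor in turn gave log2 fold changes of 1.31 to 1.57, with the gene called in all 8 fits.

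Casp1 (ENSMUSG00000025888, chr9:5298517-5307265, + strand) encodes the caspase that canonical inflammasomes activate. Control tumors had 51.7, 51.2, 51.9 and 33.9 CPM and treated tumors 76.3, 141, 71.3 and 77.1 CPM. The groups did not overlap, control replicate 5 was the low tumor of its group and treated replicate 2 the high tumor of the other. The means of 47.2 ± 8.82 and 91.5 ± 33.4 CPM (SD, n = 4) gave a fitted log2 fold change of 0.96 (SE 0.26, adjusted p = 0.103). The log2 fold change was 0.65 without treated replicate 2.

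Casp12 (ENSMUSG00000025887, chr9:5345430-5373032, + strand), an inflammatory caspase of the same cluster whose role in pyroptosis is less settled, had 61.1, 70.9, 44.2 and 31.6 CPM in control tumors and 67.9, 98.4, 67.0 and 79.1 CPM in treated tumors. Here the control tumors spread widely and the groups overlapped, since control replicate 3 was above treated replicates 1 and 3. The fitted log2 fold change was 0.59 (SE 0.26, adjusted p = 0.370). The 3 caspase genes are neighbors on chromosome 9 in the same orientation, and none of their exonic 50-base words recurs in the exons of another gene, so reads of that length were not shared between them.

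The balance among the 3 caspases was compared within each tumor as a log2 ratio of counts with 0.5 added to both, in which the library size cancels. Of 5 pairs compared, none had an adjusted p under 0.05. The exact two-sided permutation test of 4 against 4 tumors has a smallest possible p of 0.0286. A single pair at that p could not pass the adjustment over 5 pairs, so not passing does not show that a pair was unchanged. Casp12 to Casp4 went from 0.52 ± 0.54 in the control group to -0.33 ± 0.13 in the treated group (difference -0.85, SE 0.28, exact permutation p = 0.0571, adjusted over the 5 pairs 0.0952). Control tumors had log2 ratios of 0.76, 0.88, 0.72 and -0.28, and treated tumors -0.43, -0.42, -0.31 and -0.16. The overlap came from control replicate 5, which also had the lowest Casp1 and Casp12 levels of its group. With single tumors left out, the difference was -1.12 to -0.73, largest in size without control replicate 5 and smallest without control replicate 3. Casp4 to Casp1 went from -0.43 ± 0.46 to 0.14 ± 0.17 (difference 0.57, SE 0.25, exact permutation p = 0.0571, adjusted 0.0952), again with control replicate 5, at 0.18, inside the treated range of -0.10 to 0.26. That difference was 0.39 to 0.77 with single tumors left out, smallest without control replicate 4 and largest without control replicate 5.

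**Figure D3:**
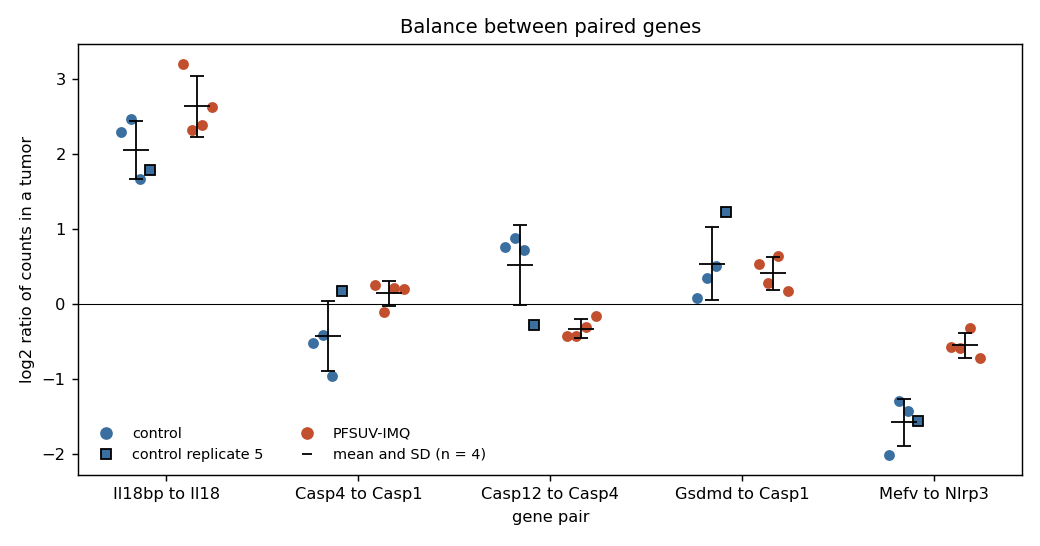
Log2 ratio of the counts of paired genes in each tumor, with control tumors in blue, control replicate 5 as a square, PFSUV-IMQ tumors in red, and the mean with its SD (n = 4 per group). The groups are apart for Mefv to Nlrp3 and overlap for the other 4 pairs, for Casp4 to Casp1 and Casp12 to Casp4 through the square.

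To show how the start of the called gene differs in sequence from that of its neighbor, the bases upstream of Casp4 and Casp12 are printed. They are from RefSeq (GRCm38.p6), 5′ to 3′ on the + strand, and end where the GENCODE M21 gene begins. RefSeq windows of 250 bases before to 50 after a transcript start were found for 9 of the 10 members (11 windows, with none for Gsdmd), and each was searched on both strands for the interferon-stimulated response element core GAAANNGAAA (TTTCNNTTTC on the other strand) and for the gamma-activated site TTCNNNGAA, which reads the same on both strands. Capitals mark a match. Since 0 of the 11 windows held the response element core, every match is a gamma-activated site.
Casp4, chr9:5308599-5308827: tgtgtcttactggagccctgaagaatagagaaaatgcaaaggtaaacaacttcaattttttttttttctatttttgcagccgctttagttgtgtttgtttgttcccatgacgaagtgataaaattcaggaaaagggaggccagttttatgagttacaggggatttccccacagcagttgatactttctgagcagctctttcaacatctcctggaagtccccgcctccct
Casp12, chr9:5345226-5345429: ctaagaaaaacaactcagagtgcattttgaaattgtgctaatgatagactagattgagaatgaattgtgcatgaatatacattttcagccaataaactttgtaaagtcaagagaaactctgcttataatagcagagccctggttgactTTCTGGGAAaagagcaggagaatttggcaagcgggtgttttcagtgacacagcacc
The Casp4 stretch held neither motif. The Casp12 window held TTCTGGGAA at -102 to -94 from the RefSeq start, shown in capitals, and again at -36 to -28, which lies past the start of the GENCODE gene and is not printed. No other member window held the gamma-activated site, which 8.30% of 32851 windows of the same length held, and 0 of the 11 held the response element core, which 3.44% held. Matches are descriptions of letters in these windows.

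Gsdmd (ENSMUSG00000022575, chr15:75862327-75867408, + strand) encodes gasdermin D, the pore-forming substrate of caspase-1 and caspase-11. Control tumors had 54.7, 65.4, 73.7 and 78.9 CPM and treated tumors 109.9, 172, 111 and 87.2 CPM. Every treated tumor was above every control tumor, by a narrow margin for treated replicate 4. Means of 68.2 ± 10.6 and 120.0 ± 36.5 CPM (SD, n = 4) gave a fitted log2 fold change of 0.82 (SE 0.23, adjusted p = 0.115), so the difference did not pass the test, and it was 0.57 without treated replicate 2. The log2 ratio of Gsdmd to Casp1 was 0.54 ± 0.48 in control and 0.41 ± 0.21 in treated tumors, a difference of -0.13 (SE 0.26, exact permutation p = 0.743) whose sign was opposite, at 0.09, without control replicate 5.

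The 3 member sensors were measured at low levels. Nlrp3 (ENSMUSG00000032691, chr11:59541568-59566956, + strand), which responds to ion fluxes and many danger signals, had 5.62, 4.92, 7.52 and 5.16 CPM in control tumors and 6.90, 14.1, 3.85 and 5.18 CPM in treated tumors. Only treated replicate 2 exceeded the control range, and the log2 fold change of 0.37 (SE 0.39, adjusted p = 0.785) became -0.15 without it. Nlrc4 (ENSMUSG00000039193, chr17:74425438-74459142, - strand), which with NAIP proteins responds to flagellin and bacterial secretion systems, had 3.36, 4.08, 6.83 and 2.55 CPM in control tumors and 3.26, 6.08, 3.51 and 3.03 CPM in treated tumors. The groups lay over each other, with control replicate 4 the highest of the 8 tumors and a log2 fold change of -0.09 (SE 0.36, adjusted p = 0.959), which was 0.24 without control replicate 4 and 0.04 without treated replicate 4.

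Mefv (ENSMUSG00000022534, chr16:3707218-3718097, - strand) encodes pyrin, the sensor of RhoA inactivation. It was the member with the lowest mean in control tumors, at 1.38, 2.0, 2.79 and 1.74 CPM in control tumors and 4.63, 9.36, 3.07 and 3.14 CPM in treated tumors, where 30 to 65 and 55 to 134 reads were counted per tumor. Its groups did not overlap, although the closest tumors of each, control replicate 4 and treated replicate 3, were near each other. The log2 fold change was 1.34 (SE 0.42, adjusted p = 0.164), and 0.85 without treated replicate 2.

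Mefv was also set against Nlrp3 within each tumor. The log2 ratio of Mefv to Nlrp3 was -2.01, -1.29, -1.42 and -1.56 in control tumors and -0.57, -0.59, -0.32 and -0.72 in treated tumors. It was the 1 ratio of the 5 whose groups were apart, and treated replicate 2 was within the range of the other treated tumors. The difference of 1.02 (SE 0.18) had an exact permutation p of 0.0286, the smallest this design allows, and 0.0952 after adjustment over the 5 pairs. A single separated pair could not pass that adjustment whatever its size.

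Pycard (ENSMUSG00000030793, chr7:127989708-127993867, - strand) encodes ASC, the adaptor between sensors and caspase-1. Control tumors had 3.09, 4.74, 5.71 and 4.02 CPM and treated tumors 4.75, 22.1, 6.97 and 6.12 CPM. Treated replicate 2 was 3.73 times the mean of the other 3 treated tumors, and treated replicate 1 lay inside the control range. The log2 fold change of 1.18 (SE 0.48, adjusted p = 0.330) was 0.42 without treated replicate 2. Of its exonic bases, 12.8% overlap Gm45205 on the opposite strand, and since no source used here states whether counting used strand, reads of these genes may not have been told apart.

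The cytokine IL-18 is stored as a precursor that caspase-1 cleaves, and IL-18 binding protein is a secreted decoy that neutralizes it. Il18 (ENSMUSG00000039217, chr9:50554827-50581840, + strand) had 6.08, 7.91, 10.1 and 6.19 CPM in control tumors and 8.11, 25.2, 10.7 and 10.4 CPM in treated tumors. The groups overlapped, and again treated replicate 2 was far above the rest (log2 fold change 0.84, SE 0.37, adjusted p = 0.369, and 0.34 without that tumor). Il18bp (ENSMUSG00000070427, chr7:102014885-102018690, - strand) had 29.8, 43.6, 32.1 and 21.3 CPM in control tumors and 74.5, 126, 55.4 and 64.2 CPM in treated tumors. The lowest treated tumor was above the highest control tumor, with means of 31.7 ± 9.17 and 80.0 ± 31.5 CPM (SD, n = 4).

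The log2 fold change of Il18bp was 1.33 (SE 0.30, adjusted p = 0.0508), which missed the threshold by a small margin. Il18bp was called with DESeq2's size factors (adjusted p = 0.0491), with no filter on low counts (0.0128), with at least 10 counts in every tumor (0.0481) and with the Wald test of DESeq2 (0.00286), but in 0 of the 8 fits that left out a tumor (0.0568 to 0.149). Its exons overlap those of Numa1 on the opposite strand for 2.64% of bases. The log2 ratio of Il18bp to Il18 was 2.05 ± 0.38 in control and 2.63 ± 0.40 in treated tumors, a difference of 0.58 (SE 0.28, exact permutation p = 0.114, adjusted over the 5 pairs 0.143), and the groups overlapped.

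Per kilobase of exon, Casp1 and Gsdmd were the most abundant members in both groups. The length was that of all annotated exons of a gene together, which can exceed that of the transcripts present. For Pycard it was 3800 bases, most of the gene's span, so its level per kb may be understated and the order depends on the annotation. In control tumors Casp1 had 31.5 ± 5.89 and Gsdmd 28.7 ± 4.44 CPM per kb, and their ranges overlapped. Casp12 (13.5 ± 4.55), Il18bp (10.5 ± 3.03), Casp4 (9.42 ± 1.48) and Il18 (7.34 ± 1.82) followed, each overlapping the next. Below a gap, from 5.90 CPM per kb in the lowest tumor for Il18 to 1.85 in the highest for Nlrp3, came Nlrp3 (1.43 ± 0.291), Pycard (1.16 ± 0.293), Nlrc4 (0.875 ± 0.386) and Mefv (0.609 ± 0.184 CPM per kb), again with overlapping neighbors. Casp1, Casp4, Casp12 and Gsdmd were thus higher per kb of annotated exon than the member sensors Nlrp3, Nlrc4 and Mefv and the adaptor gene Pycard. The same split held in CPM without length, with control means of 34.9 to 68.2 CPM beside 1.98 to 5.80 CPM.

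In treated tumors Casp4 was at 26.6 ± 6.02 CPM per kb and moved from the fifth to the third place, whereas Casp12, at 20.3 ± 3.81, moved from the third to the fifth. The ranges of Casp4 (22.3 to 35.5), Il18bp (18.3 to 41.6) and Casp12 (17.4 to 25.6 CPM per kb) overlapped, so the order of these neighbors is not separated by the spread between tumors. Nlrc4, at 0.826 ± 0.295, took the last place from Mefv, at 1.55 ± 0.911 CPM per kb.

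The members shared a peak in 1 treated tumor, while among the control tumors they differed in order, with Gsdmd highest in control replicate 5, where Casp1 and Casp12 were lowest. The summed level, carried mostly by the abundant members, was 253, 293, 262 and 224 CPM in control replicates 1, 3, 4 and 5, and 448, 746, 415 and 424 CPM in treated replicates 1 to 4. Treated replicate 2 was the highest treated tumor for 10 of 10 members, an arrangement that 34.8% of all tested genes had, and the highest of all 8 tumors for 9, with Nlrc4 the exception. Its level over the mean of the other 3 treated tumors was smallest for Casp12 and Casp4, at 1.38-fold and 1.50-fold, and largest for Pycard, at 3.73-fold. Without treated replicate 2, the treated means were 87.6 CPM for Casp4, 64.7 for Il18bp, 5.95 for Pycard and 5.31 for Nlrp3, the last below its control mean of 5.80 CPM.

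Markers of other cell types moved with this tumor. The neutrophil markers summed to 162 CPM in treated replicate 2, to 59.5 at most in the other treated tumors and to 18.1 to 74.2 in control tumors, and Ly6g, a defining neutrophil gene, averaged 0.166 CPM in control and 0.535 CPM in treated tumors. Between the groups, 0 of the 7 tested neutrophil markers were called, with 7 of 7 positive and a median log2 fold change of 1.16. The common leukocyte gene Ptprc was at 172 CPM in treated replicate 2, at most 75.2 in the other treated tumors and 39.6 to 100.4 in control tumors.

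The hepatocyte sum was 37889 CPM in treated replicate 2, against at most 9869 in the other treated tumors and 4572 to 34385 in control tumors. Macrophage and Kupffer cell markers summed to 1152 CPM in treated replicate 2, to at most 1049 in the other treated tumors and to 827 to 1250.1 CPM in control tumors, with 0 of 10 called higher and 1, the Kupffer cell receptor gene Vsig4, lower. Of these 10, 1 had a positive and 9 a negative log2 fold change, with a median of -0.35. Of 5 monocyte markers 0 were called higher and 1, the chemokine receptor gene Cx3cr1, lower, but the list was mixed, with 2 positive and 3 negative log2 fold changes. The 2 positive ones, Ly6c2 (1.88, adjusted p = 0.0633) and Plac8 (1.17, adjusted p = 0.210), had every treated tumor above every control tumor. Besides Cx3cr1, the negative ones were Ccr2 (-1.23, adjusted p = 0.0890) and Chil3 (-0.81, adjusted p = 0.763), whose groups overlapped. The monocyte sum was 306 CPM in treated replicate 2, at most 145 in the other treated tumors and 138 to 257 CPM in control tumors. The part of cell composition in the members' values was not tested.

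For each member, the tested gene with the most similar level over the 8 tumors was taken by Pearson's r of log2 CPM among 13092 genes. The value is a description over tumors that differ in treatment and depth, which can raise r. Taking the highest r among so many genes over 8 tumors raises it as well. Casp4 was nearest to Mlkl (r = 0.998), which encodes the effector of necroptosis and was itself called (log2 fold change 1.52, adjusted p = 0.00413). Il18bp was nearest to the guanylate-binding protein gene Gbp10 (r = 0.986) and Casp1 to Ms4a6d (r = 0.990). Without treated replicate 2, over 7 tumors, r was 0.998, 0.975 and 0.976 for these 3 pairs. With each group's mean taken out, over 8 tumors, r was 0.984, 0.950 and 0.995. These values come from the same tumors that picked the pairs, so they are not a separate check of them. The nearest genes of the rest were Gpr141 for Casp12 (r = 0.982), Itgb3 for Gsdmd (0.984), Marcksl1 for Pycard (0.993), Iqsec2 for Nlrp3 (0.974), Sqor for Nlrc4 (0.995), Cd300lf for Mefv (0.987) and Igfbp1 for Il18 (0.993).

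A list of 38 further genes of the pathway, chosen like the members with earlier results of these data known, was set beside them as a description. All 38 were counted and 32 were tested. Of these, 6 were called higher and 0 lower, 22 were positive and 10 negative, and the median log2 fold change was 0.26, beside 2.26% of all tested genes called higher and a median of -0.03. Of the 6, 5 were the guanylate-binding partners, GTPases that attack the membranes of bacteria and their vacuoles and expose lipopolysaccharide to caspase-11. All 5 of that role rose, with every treated tumor above every control tumor, as in 6.00% of all tested genes. Gbp5 rose from 42.1 ± 15.9 to 428 ± 338 CPM (SD, n = 4; log2 fold change 3.35, SE 0.52, adjusted p = 0.00963), and without treated replicate 2, at 933 CPM, the treated mean was 259 CPM and the log2 fold change 2.60. Gm12250, the Irgb10 gene, rose from 25.9 ± 9.79 to 245 ± 123 CPM (log2 fold change 3.24, SE 0.40, adjusted p = 0.00295), and the log2 fold change was 2.80 without treated replicate 2.

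Gbp2, Gbp3 and Gbp7 had log2 fold changes of 1.99, 2.37 and 2.06. These genes are related in sequence, and 12.8% of the exonic 50-base words of Gbp7, 4.79% of Gbp3, 2.45% of Gbp5 and 2.07% of Gbp2 also occur in another gene, so part of their counts is uncertain. With single tumors left out, Gbp5 and Gm12250 were called in 8 of 8 fits, Gbp2 and Gbp3 in 7 and Gbp7 in 5.

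**Figure D4:**
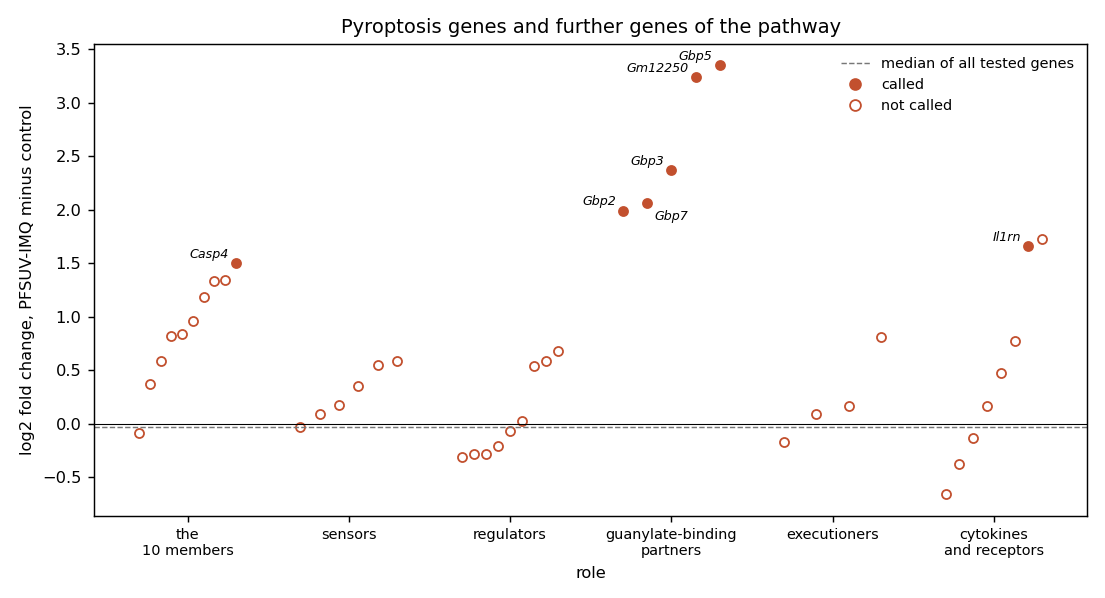
Log2 fold change, PFSUV-IMQ minus control, of the 10 members and of the tested genes of the pathway list by role, where filled and named points were called and the dashed line is the median of all tested genes (-0.03). The 5 guanylate-binding partners are all filled and lie between 1.99 and 3.35, above Casp4 at 1.50.

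Outside the guanylate-binding partners 1 gene, Il1rn, was called. It encodes the IL-1 receptor antagonist and rose from 53.0 ± 9.87 to 167 ± 91.2 CPM (SD, n = 4; log2 fold change 1.66, SE 0.33, adjusted p = 0.0309), but was called in only 3 of the 8 fits that left out a tumor. In the same role Il1r1, the IL-1 receptor, had the largest log2 fold change, at 1.73 (SE 0.62, adjusted p = 0.249), and it did not pass. Treated replicate 2 was at 206 CPM, and without it the treated mean went from 86.8 to 47.1 CPM and the log2 fold change to 0.83. Chosen after its values were seen, Il1b, the other cytokine that caspase-1 matures, had 23.0 ± 8.17 CPM in control and 14.6 ± 5.05 CPM in treated tumors (log2 fold change -0.66, adjusted p = 0.446).

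None of the other roles held a called gene. Among the sensors, 6 of 10 were tested and the largest log2 fold change was that of Naip6, at 0.59 (SE 0.48, adjusted p = 0.703), whose words are shared with other genes for 21.5%. Among the 9 regulators it was that of Panx1, a membrane channel gene, at 0.68 (SE 0.23, adjusted p = 0.226), with treated tumors all above control tumors. Among the executioners, 4 of 6 were tested and 0 were called. Gsdmc was listed at 0 counts in all 8 tumors.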

How the data were processed

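RNA of 8 tumors (4 Control, 4 IMQNP) was analyzed from counts of reads per gene that the authors deposited, and a second deposited table of signal values, those counts divided by 1 DESeq2 size factor per tumor, was used only for gene symbols. The methods of the study name TopHat and HTSeq, whereas the submitters' processing notes list Trimmomatic 0.38, HISAT2 2.1.0 and featureCounts 2.0.0, so the tools that made the counts are uncertain. The genome build was not given in the sources used here, and all 55536 gene identifiers are in GENCODE M21 (GRCm38), which supplied positions and exon lengths.

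The members and gene lists were chosen with earlier results of these data known. All genes were fitted in R 4.3.3 with edgeR 4.0.16 (TMM normalization, default filter on low counts, quasi-likelihood test, Benjamini-Hochberg adjustment over 15998 genes), without covariates, and the standard error was the log2 fold change divided by the square root of F. The script was tested on simulated data. CPM use the TMM factors. The labels do not say whether tumors came from separate animals. Each tumor was treated as an independent sample, and the p-values set the group difference against the spread between these samples. Ratios within a tumor used a pseudocount of 0.5 and an exact permutation test.

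The genes named are all 10 members, each pathway gene called, the tested gene with the largest absolute log2 fold change in each role, and for each member the gene most alike among those with a mean log2 CPM of at least 1. Alternatives were DESeq2's size factors, DESeq2 1.42.0 (Wald test), no filter, at least 10 counts in every tumor, a replicate block, a pseudocount of 2 for ratios, and each tumor left out. Protein sequences were not used here, and 1 gene that this rule names is not reported here.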

Additional observations from a re-analysis of the deposited data

Results flagged for a closer look

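In each group of 4 tumors, the highest and the lowest CPM of every member were compared with the rest of the group by Dixon's gap. Of the 20 groups, 5 had a tumor far from the other 3, where chance flags about 1 in 20 groups. Of these 5, 4 were the same tumor, treated replicate 2, at 141 CPM for Casp1, 22.1 CPM for Pycard, 6.08 CPM for Nlrc4 and 25.2 CPM for Il18. The next highest treated tumors were at 77.1, 6.97, 3.51 and 10.7 CPM. The remaining 1 was Casp1 in control replicate 5, at 33.9 CPM beside 51.2 to 51.9 CPM in the other control tumors. Casp4 had no such tumor in either group.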

How the results depend on the processing

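Casp4 was called under all 13 alternatives for which it was fitted, with log2 fold changes of 1.31 to 1.57 when single tumors were left out. The number of members called higher, 1 in the reported fit, was 2 with DESeq2's size factors, 2 with no filter on low counts, 2 with at least 10 counts in every tumor and 3 with the Wald test of DESeq2. Il18bp was the second call each time, and Mefv (1.35, adjusted p = 0.0379) the third. With the Wald test Casp1 (0.95, adjusted p = 0.0337) and Gsdmd (0.82, adjusted p = 0.0409) passed on p but not on fold. The number of members called higher was 1 to 1 with each tumor left out. The number of pathway genes called higher was 2 to 6, the lowest without Control replicate 1, which left Gbp5 and Gm12250. Over all tested genes, 362 were called higher and 32 lower, with the Wald test 618 and 133, and 197 to 375 and 8 to 38 with a tumor left out. The log2 fold change of Nlrp3 was -0.15 to 0.59 with a tumor left out, negative only without IMQNP replicate 2, and that of Nlrc4 was -0.38 to 0.24, positive without Control replicate 4 and, at 0.04, without IMQNP replicate 4. The cause was not tested. Of 130 refitted member values, 121 kept their direction and their side of the threshold.

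The groups share the replicate numbers 1, 3 and 4. Same-numbered tumors had correlations of 0.294, -0.268 and -0.316, inside the range of -0.637 to 0.683 of unlike-numbered tumors. So few values cannot decide whether the numbers pair the tumors. With the replicate block, in which tumors numbered 2 and 5 add nothing, 1 member was called higher, the log2 fold change of Nlrp3 was -0.20, and over all genes 416 were called higher and 267 lower. Depth limits the precision of the low genes, such as Mefv at 30 to 134 reads per tumor.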
